A study of Mus musculus with 12 samples.

Results

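The lungs described here are the 4 control specimens, labelled Dermo1+/Cre, of a series of 12 arrays. They carry Cre recombinase in 1 copy of the Dermo1 (Twist2) locus, and their label names no Mek allele. The other groups of the series, with 4 arrays each, are Mek1+/flox;Mek2-/-;Dermo1+/Cre and Mek1flox/flox;Mek2-/-;Dermo1+/Cre. All 3 groups were taken at E15.5 on the 129/Sv background and share the Cre allele. Any effect of Cre or of the interrupted Twist2 copy is thus present in every lung and cannot be told apart from normal development. Whether a specimen is 1 lung or a pool, its litter and its sex are not stated in the labels, so the SD below measures the spread between these 4 specimens. The controls were chosen by their genotype label, and their genes by a detection p under 0.01 on all 4 arrays in the deposited scanner table. Of 16593 named genes on the array, 7468 met that rule, and they were ranked by their mean log2 value in the authors' deposited matrix. No contrast between groups was made.

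In the pseudoglandular stage the airway tree forms by repeated branching of an epithelial tube into surrounding mesenchyme. Fgf10 from distal mesenchyme draws out the buds, Shh from the epithelium signals back, and the stalks behind the tips take on airway fate, smooth muscle and cartilage. Distal tips hold Sox9+ Id2+ progenitors that already transcribe Sftpc, long before surfactant is secreted, while proximal airway is marked by Sox2. Secretory, ciliated and basal cells mature later. Dermo1-Cre acts in the mesenchyme and its derivatives, and not in epithelium.

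**Figure D1:**
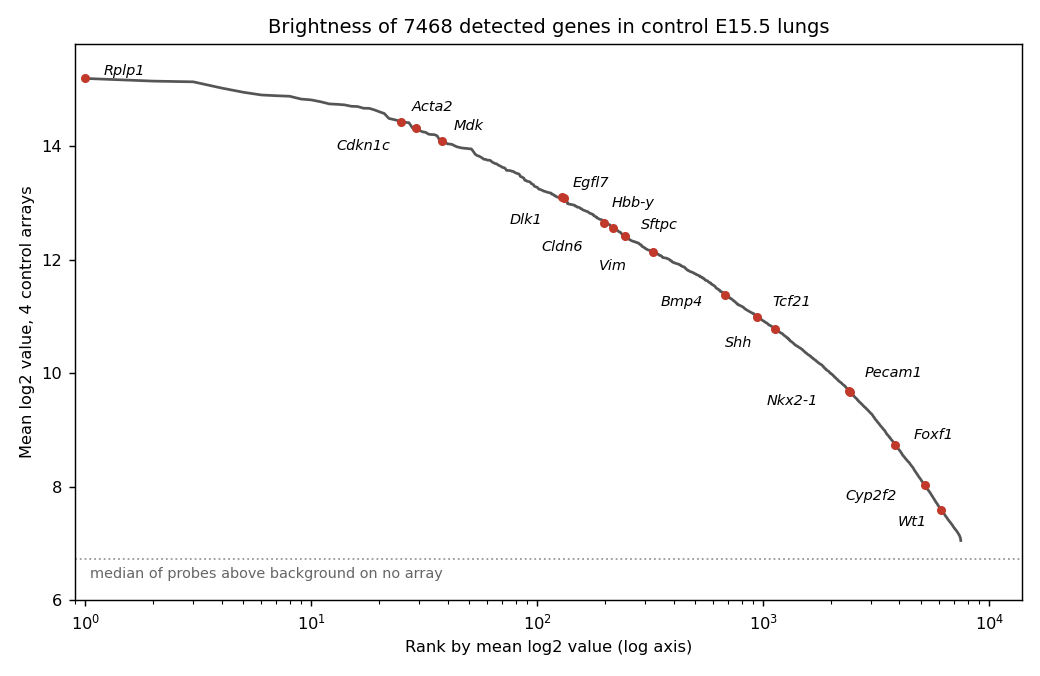
Mean log2 value over 4 control arrays (vertical axis) against brightness rank (horizontal log axis) of 7468 detected genes. Red points mark named genes, the dotted line is the median of probes above background on no array, and the curve falls from 15.19 for Rplp1 to 7.05.

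Nearly as many genes were above background on every control lung as on none. Of the named genes, 7468 (45.0%) were above background on all 4 control arrays, 7717 (46.5%) on none and 8.49% on 1 to 3. The mean log2 value of detected genes ran from 7.05 to 15.19 with a median of 8.80. The 75th percentile was 10.09, the 90th 11.26, and the gene of rank 100 lay at 13.27. Probes above background on no array had a median of 6.72. Between 11120 and 11878 probes were detected per control array, against 10467 to 11835 on the other 8 arrays. Correlations of log2 values between control arrays ran from 0.990 for replicates 1 and 2 to 0.995 for replicates 2 and 3. Before normalization replicates 2 and 3 were brighter, with upper-quartile intensities of 390 and 388 units, against 261 and 301 for replicates 1 and 4 and 227 to 306 for the other 8 arrays. A gene's percentile below is its place among detected genes, 100 being the brightest. It describes signal on this platform and not molecules per cell, because probes differ in how well they bind: among the 1832 genes with more than 1 detected probe, the brightest and dimmest probes lay a median of 0.97 apart on the log2 scale. For the same reason a probe at background does not show that a gene is silent.

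The brightest genes belonged to protein synthesis, chromatin and the cytoskeleton. Of the 25 brightest, 13 encode cytosolic ribosomal proteins, 2 are H2A histones and 2 are tubulins. Rplp1, a protein of the ribosomal stalk, was first at 15.20, 15.10, 15.27 and 15.20 on replicates 1 to 4 (mean 15.19 ± 0.07, SD, n = 4). H2ac20, a replication-dependent histone H2A gene, followed at 15.07, 15.23, 15.20 and 15.08, and its cluster relative H2ac24 at 15.13, 15.13, 15.23 and 15.04. Both histones overlapped Rplp1 on the 4 arrays. Histone H2A genes are near-identical to each other, and ribosomal protein genes have many processed copies, so the share of signal from each copy is uncertain.

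Between neighbours in the order of the 25, 1 of 24 pairs differed by more than their pooled SD. The other members of the 25 were Rps2 (15.02 ± 0.07), Tuba1b, an alpha-tubulin (14.95 ± 0.10), Rpl41, Rpl9, Tubb5, a beta-tubulin (14.88 ± 0.04), Hba-a1, adult alpha-globin, Rps12, Rpl23, Rpl38, Rps4x, Rps19, Rps20, Atp5b, the catalytic subunit of ATP synthase (14.70 ± 0.08), Hspa8, the constitutive heat shock chaperone (14.67 ± 0.10), Igf2, Ubb-ps, a ubiquitin pseudogene that shares sequence with Ubb (14.64 ± 0.17), the cytokine Mif (14.60 ± 0.16), Eef1g, an elongation factor subunit (14.58 ± 0.06), Rpl37, Rpl35, Rps14 and Acta2. All SDs are over n = 4 arrays.

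Only 5 of those 25 and 10 of the 100 brightest are members of the marker and pathway lists used below. Igf2, the main growth factor of the fetus, had 14.62, 14.73, 14.64 and 14.68 (mean 14.67 ± 0.05). Acta2, smooth muscle alpha-actin, had 14.45, 14.45, 14.44 and 14.39 (14.43 ± 0.03). Its other detected probes averaged 11.09 to 11.86, with SDs of up to 0.27. Its place among the 25 and its small spread thus rest on its brightest probe. Hba-a1 had 15.05, 14.70, 14.91 and 14.66 (14.83 ± 0.18), with replicates 1 and 3 above replicates 2 and 4. Among the 100 brightest 34 were cytosolic ribosomal proteins, 7 histones, 5 oxidative phosphorylation subunits and 5 translation factors. Named after their values were seen, the cytoskeletal actin Actb lay at 14.32 ± 0.14, Nrep, a gene of regenerating and embryonic tissue, at 14.20 ± 0.08, and the alcohol dehydrogenase Adh1, which oxidises retinol, at 13.79 ± 0.07 (n = 4).

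The sequences before the starts of 5 genes are shown as examples, 2 of them bright housekeeping genes, 2 detected genes of red cells and distal epithelium, and 1 liver gene at background. Promoters are 300 bases from RefSeq, assembly GRCm38.p6, from 250 before to 50 after the annotated start. They were matched by gene identifier for 81.3% of detected genes. The 110 bases printed run from 100 before the start to 10 after it, and capitals mark each CG pair and each TATAA.
Rps2, chr17:24719963-24720072, plus strand: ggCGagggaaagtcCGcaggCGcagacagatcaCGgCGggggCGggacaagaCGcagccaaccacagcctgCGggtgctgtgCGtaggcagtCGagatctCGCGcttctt
Tubb5, chr17:35838292-35838401, minus strand: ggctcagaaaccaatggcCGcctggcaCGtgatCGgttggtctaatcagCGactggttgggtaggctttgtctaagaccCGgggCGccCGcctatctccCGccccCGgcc
Hba-a1, chr11:32283572-32283681, plus strand: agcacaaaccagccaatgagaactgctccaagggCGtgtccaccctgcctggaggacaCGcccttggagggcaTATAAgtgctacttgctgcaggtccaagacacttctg
Sftpb, chr6:72304510-72304619, plus strand: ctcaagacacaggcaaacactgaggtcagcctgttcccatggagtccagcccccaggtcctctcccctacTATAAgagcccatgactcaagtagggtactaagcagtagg
Alb, chr5:90460770-90460879, plus strand: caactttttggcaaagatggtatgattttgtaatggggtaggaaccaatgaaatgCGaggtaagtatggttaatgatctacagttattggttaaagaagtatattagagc
Rps2 had 34 CG pairs in its 300 bases and Tubb5 had 20, with no TATAA between 45 and 16 bases before the start on the gene's own strand. Hba-a1 had 4 CG pairs and Sftpb, encoding surfactant protein B, had 8, and each held a TATAA in that window. Alb, encoding serum albumin of the liver, had 3 CG pairs and no TATAA in the window, and was above background on 0 of 4 arrays (mean 6.65). Over all detected genes with a promoter the median was 21 CG pairs, over the 100 brightest 19.5, and over all named genes on the array 15. The olfactory receptors, of which 1 of 1058 was detected, had a median of 1. TATAA lay in the window of 10 of 83 promoters of the 100 brightest (12%), in 2.44% of those of detected genes and in 5.29% of those of all named genes. Fewer than 80% of the genes above background on no array had a promoter in the table (79.5%), so the check is void for that set. Among cytosolic ribosomal protein genes the median was 22 CG pairs, and 7.27% of their promoters held TATAA in the window. A match is a description of letters and not of a bound site.

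**Figure D2:**
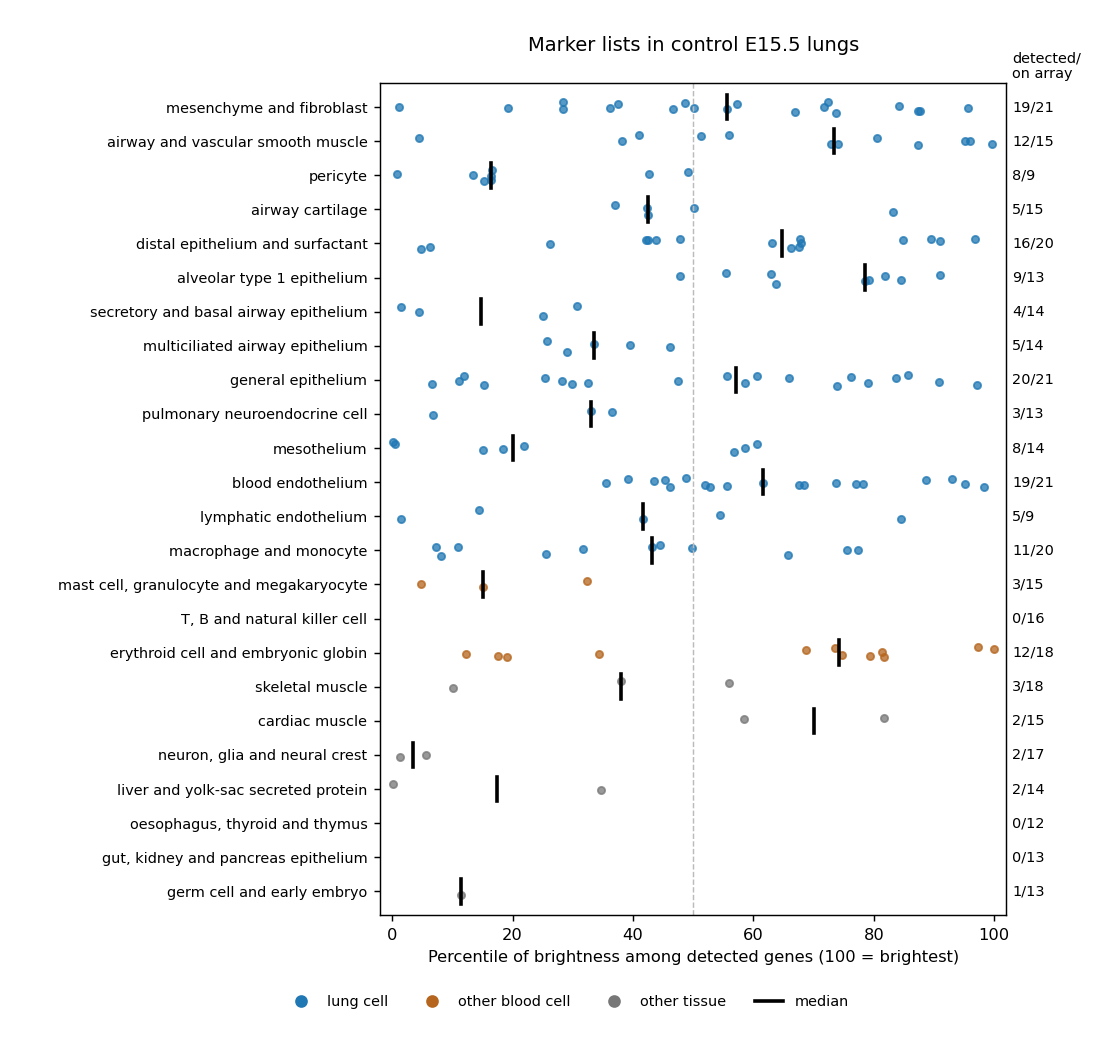
Brightness percentile of each detected marker gene (points), by list, in control lungs; black bars are list medians and the figures at the right count detected members over members on the array. Blood endothelium, mesenchyme and general epithelium have nearly every member detected, and T, B and natural killer cell, oesophagus, thyroid and thymus, and gut, kidney and pancreas have 0.

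A larger share was detected of the lung cell lists than of the lists of other tissues. Lists and members were chosen with earlier results of these data known, so the gap is a description and no test. Of the list entries of lung cell types, 144 of 219 on the array (65.8%) were detected, read against the 45.0% of all named genes. Genes shared between lists, such as Sox9, Krt19 and Pdpn, are counted in each. The corresponding count was 15 of 49 (30.6%) for other blood cells and 10 of 102 (9.80%) for tissues outside the lung. Since a bulk sample was measured, fewer cells of a type and less RNA per cell cannot be told apart.

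Of 21 general epithelial markers 20 were detected, with a median percentile of 57.1. Cldn6, an embryonic claudin of tight junctions, was the brightest at 12.69, 12.40, 12.59 and 12.55 (mean 12.56 ± 0.12, n = 4). Esrp1, the epithelial splicing regulator, had 11.45, 11.41, 11.27 and 11.33 (11.37 ± 0.08). The keratins Krt8 (10.84 ± 0.14), Krt7 (10.16 ± 0.23), Krt18 (9.57 ± 0.06) and Krt19 (9.21 ± 0.16) and the transcription factors Irx2 (10.68 ± 0.13) and Foxa1 (10.03 ± 0.07) were above the median of detected genes. E-cadherin, Cdh1, was less even, at 8.80, 9.13, 9.44 and 8.86 (9.06 ± 0.29), with replicate 3 the highest. Ocln was the dimmest detected member (7.28 ± 0.11). Spint2 was above background on 0 arrays.

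Genes of the distal epithelium spanned nearly the whole brightness range, with Sftpc near the top and Sftpa1 and Sftpd at background. Of 20 members 16 were detected, with a median percentile of 64.7. Sftpc, surfactant protein C and the first distal surfactant gene to be transcribed, had 12.54, 12.43, 12.78 and 11.90 (12.41 ± 0.37, percentile 96.7). Replicate 4 lay lowest and was separated from the other lungs by 0.53. Sftpb had 9.56, 9.65, 9.38 and 9.15 (9.44 ± 0.22), with replicate 4 again lowest. Napsa, the protease that processes surfactant protein B, had 8.84, 8.69, 8.21 and 8.34 (8.52 ± 0.30). The lipid transporter Abca3 averaged 9.67 ± 0.13 and the cathepsin Ctsh 11.19 ± 0.18. Sftpa1, Sftpd and the phosphate transporter Slc34a2 were above background on 0 of 4 arrays, with means of 6.85, 6.69 and 6.84.

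Of the factors of the tip, Bmp4 had 11.39, 11.31, 11.44 and 11.37 (11.38 ± 0.05), although the mesenchyme expresses Bmp4 as well. Shh, the ligand of the epithelium, had 10.80, 10.70, 10.83 and 10.80 (10.78 ± 0.06). By the probes shown, both were among the steadiest genes of the list. Another detected Shh probe averaged 7.79 with an SD of 0.15, so the level and small spread of Shh rest on its brighter probe. The lung epithelial master factor Nkx2-1 had 9.27, 10.06, 10.02 and 9.40 (9.69 ± 0.41), with replicates 2 and 3 above replicates 1 and 4. A second Nkx2-1 probe was above background on 0 of 4 arrays (6.77 ± 0.06), so this spread rests on 1 probe. Sox9, of tip progenitors and cartilage, had 8.35, 8.58, 8.66 and 8.31 (8.47 ± 0.17) and Id2 averaged 8.46 ± 0.34. Etv5, a transcriptional target of FGF signalling in the tip, averaged 9.59 ± 0.15. Lpcat1, of surfactant lipid synthesis, was the dimmest detected member of the list (7.24 ± 0.05).

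Genes later used as alveolar type 1 markers were detected for 9 of 13, with a median percentile of 78.5. Cav1 (11.38 ± 0.27), which endothelium also expresses, Pdpn (10.75 ± 0.11), which mesothelium and lymphatic vessels also express, Emp2 (10.53 ± 0.14), Cldn18 (10.35 ± 0.16), the lung claudin, and Igfbp2 (10.31 ± 0.15) led the list. Ager, the most selective marker of the list, averaged 9.46 ± 0.18. Hs2st1 was dimmest (8.70 ± 0.04). Hopx, Aqp5, Rtkn2 and Clic5 were above background on 0 arrays.

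Conducting airway programs were dim. Of 14 secretory and basal markers 4 were detected, with a median percentile of 14.8, and the brightest was Cyp2f2, a club cell P450, at 8.14, 8.01, 7.70 and 8.25 (8.03 ± 0.24). Cbr2 (7.83 ± 0.23), Aldh1a1 (7.23 ± 0.11) and Ngfr (7.14 ± 0.07) were the others. Sox2, of proximal progenitors, was above background on 3 arrays (mean 7.06) and Scgb1a1, the club cell secretoglobin, on 1 (6.89). Scgb3a1 and the basal markers Trp63, Krt5 and Krt14 were above background on 0. Of 14 multiciliated markers 5 were detected, with a median percentile of 33.6. Ccno, which drives centriole amplification, averaged 8.63 ± 0.05 and the ciliary gene regulator Rfx2 8.36 ± 0.14. Rsph1, a radial spoke protein, had 8.31, 8.40, 7.96 and 7.86 (8.13 ± 0.26), with replicates 1 and 2 above replicates 3 and 4. Tppp3 was dimmest (7.85 ± 0.12). Foxj1, the master factor of motile cilia, was above background on 3 arrays (7.07), as was Mcidas (7.10). The dynein Dnah5 was on 0. Of 13 neuroendocrine markers 3 were detected, Uchl1 (8.25 ± 0.14), Ddc (8.11 ± 0.06) and Syp (7.28 ± 0.08), all of which other cells also express. Insm1 and Ncam1 were above background on 1 array each, and Chga and Chgb on 0.

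Of 21 mesenchymal markers 19 were detected, with a median percentile of 55.6. Vim, the intermediate filament of mesenchymal cells, had 12.24, 11.98, 12.18 and 12.12 (12.13 ± 0.12, percentile 95.7). Tcf21, a transcription factor of lung mesenchyme, had 10.87, 11.01, 10.91 and 11.16 (10.99 ± 0.13). The proteoglycan Dcn averaged 11.01 ± 0.19 and the homeobox factors Meis1 10.72 ± 0.11 and Meis2 10.01 ± 0.12. Pdgfra had 9.61, 9.78, 10.19 and 10.02 (9.90 ± 0.26), with replicates 3 and 4 above replicates 1 and 2. Fgf10, the branching signal, had 9.65, 9.59, 9.44 and 9.82 (9.62 ± 0.15). Foxf1, a Hedgehog-dependent mesenchymal factor, had 8.70, 8.79, 8.75 and 8.70 (8.74 ± 0.04). The T-box factors of lung mesenchyme were Tbx2 (9.93 ± 0.11), Tbx3 (9.29 ± 0.20), Tbx4 (8.65 ± 0.19) and Tbx5 (7.62 ± 0.14), the 4 T-box genes detected of 12 on the array. Twist2, whose locus carries Cre, had 7.77, 8.07, 7.84 and 8.09 (7.94 ± 0.16, percentile 28.5). Prrx1 was dimmest (7.13 ± 0.11). Twist1 was above background on 1 array and Wnt2 on 0, although Wnt2 is an established gene of lung mesenchyme.

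By its brightest probe, Acta2 was the single smooth muscle gene among the 25 brightest. Of 15 on the array 12 were detected, with a median percentile of 73.5. After Acta2 came the tropomyosin Tpm1 (12.21 ± 0.09). Actg2, the enteric gamma-actin, had 11.96, 12.06, 12.26 and 11.87 (12.04 ± 0.17). Mylk, the myosin light chain kinase (10.98 ± 0.10), Smtn (10.44 ± 0.18) and Myh11, the smooth muscle myosin heavy chain (9.96 ± 0.09), followed, and the coactivator Myocd averaged 8.86 ± 0.11. Tagln was the dimmest detected member at 7.12, 7.23, 7.27 and 7.28 (7.22 ± 0.07), and Cnn1 and Lmod1 were above background on 0 arrays. Tagln and Acta2 are both used as markers of smooth muscle. Pericyte markers were detected for 8 of 9 at low brightness, with a median percentile of 16.4. Notch3 (8.76 ± 0.12) and Rgs5 (8.48 ± 0.16) led them, and Abcc9 was dimmest (7.11 ± 0.04). Of 15 cartilage genes 5 were detected, with a median percentile of 42.5. Matn4, a matrilin, averaged 10.64 ± 0.15, with other probes between 7.60 and 7.68, and Col2a1, the cartilage collagen, had 8.09, 8.07, 8.56 and 8.35 (8.27 ± 0.23). Sox5 (8.80 ± 0.11) and Col9a2 (8.47 ± 0.20) were detected, Hapln1 was above background on 3 arrays, and Acan, Matn1 and Comp on 0. Mesothelium had 8 of 14 members detected (57.1%, against 45.0% of all named genes), with a median percentile of 20.1. Upk3b had 9.14, 9.43, 9.25 and 9.44 (9.32 ± 0.15), and Wt1, of the mesothelial lineage, had 7.40, 7.63, 7.64 and 7.71 (7.60 ± 0.13). Podxl averaged 9.12 ± 0.22, Igfbp6 was dimmest (7.07 ± 0.08), and Msln and Lrrn4 were above background on 0.

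Of 21 blood endothelial markers 19 were detected, with a median percentile of 61.7. Egfl7, a secreted endothelial factor, had 13.20, 13.06, 13.02 and 13.10 (13.10 ± 0.08, percentile 98.3). Esam, an endothelial adhesion molecule, had 12.05, 12.01, 12.12 and 11.95 (12.03 ± 0.07). Ramp2 (11.71 ± 0.11), the adrenomedullin receptor partner, Emcn (11.11 ± 0.14) and Plvap (10.29 ± 0.10) followed. Pecam1 had 9.70, 9.79, 9.68 and 9.52 (9.67 ± 0.11) and VE-cadherin, Cdh5, had 9.15, 8.67, 8.87 and 8.83 (8.88 ± 0.20), with replicate 1 the highest. The endothelial factors Sox18 (10.01 ± 0.14), Sox7 (9.37 ± 0.08) and Sox17 (8.59 ± 0.16) were all detected. Nos3 was the dimmest detected member (8.21 ± 0.13). Kdr, the main VEGF receptor, and Erg were above background on 0 arrays. Lymphatic markers were detected for 5 of 9 (55.6%, against 45.0% of all named genes). Ccl21a, the lymphatic chemokine, had 9.03, 8.84, 8.96 and 9.18 (mean 9.0, SD 0.14), and its near-identical copies Ccl21b (8.37 ± 0.20) and Ccl21c (8.14 ± 0.16) may share its signal. Lyve1 had 8.13, 8.38, 8.57 and 8.71 (8.44 ± 0.25). Reln was dimmest (7.14 ± 0.10). Flt4 was above background on 2 arrays and Prox1 on 0.

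Among blood cells, genes of the red cell lineage included some of the brightest on the array, and no lymphocyte gene was above background on all 4 arrays. Of 18 erythroid genes 12 were detected, with a median percentile of 74.2. Beside Hba-a1, the embryonic globin Hbb-y had 12.64, 12.34, 12.61 and 13.01 (12.65 ± 0.28), with replicate 4 highest. Another embryonic globin, Hbb-bh1, had 8.24, 7.92, 8.08 and 8.39 (8.16 ± 0.20), and the zeta-globin Hba-x averaged 10.49 ± 0.18. Alas2, the first enzyme of heme synthesis in red cells, had 10.25, 10.18, 9.97 and 9.88 (10.07 ± 0.17), and Tfrc, the transferrin receptor, averaged 10.51 ± 0.09. Fech was dimmest (7.42 ± 0.16). The red cell factor Gata1 was above background on 0 arrays and Klf1 on 1. Globin genes share long stretches of sequence, so their probes may take each other's signal.

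Of 20 macrophage and monocyte markers 11 were detected (55.0%, against 45.0% of all named genes), with a median percentile of 43.2. Lyz1 had 10.12, 10.47, 10.29 and 10.06 (10.23 ± 0.19), and shares much of its sequence with Lyz2 (8.79 ± 0.08), which distal epithelium also expresses in later life. Laptm5, a lysosomal protein of blood cells, had 10.16, 10.16, 10.12 and 10.11 (10.14 ± 0.02), nearly the same on all 4 arrays. The complement gene C1qb had 8.58, 8.27, 8.54 and 8.61 (8.50 ± 0.16), and C1qc (8.06 ± 0.13) and C1qa (7.30 ± 0.10) were detected too. Mrc1, the mannose receptor, averaged 8.55 ± 0.20. Adgre1 was above background on 1 array and Fcer1g, Ccr2 and Spi1 on 0. Of 15 mast cell, granulocyte and megakaryocyte genes 3 were detected, namely Hdc, the histamine-forming enzyme (8.08 ± 0.15), S100a8 and Cpa3 (7.23 ± 0.12). Of 16 genes of T, B and natural killer cells 0 were detected on all 4 arrays. Cd79b was above background on 3 arrays, Klrb1c on 2, Ptcra, Ms4a1 and Vpreb1 on 1, and Cd3e, Cd3d, Cd3g and Cd4 on 0.

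Few genes of tissues outside the lung were detected. Of 15 heart muscle genes 2 were detected. Cardiac actin, Actc1, had 10.45, 10.49, 10.56 and 10.57 (10.52 ± 0.06), and the atrial light chain Myl4 had 9.34, 9.11, 8.77 and 9.61 (9.21 ± 0.35). Replicate 4 was highest and replicate 3 lowest for Myl4. Myh6 and Myl7 were above background on 3 arrays (7.15 and 7.04), and Myh7, Myl2, Tnni3 and Nppa on 0. Pulmonary veins carry heart muscle in mice, and which cells gave this signal was not tested. Of 18 skeletal muscle genes 3 were detected, Des (9.08 ± 0.09), which smooth muscle shares, Tnnt1 (8.30 ± 0.22) and Mylpf (7.37 ± 0.17), with Myod1, Myf5 and Ckm on 0 arrays. Of 17 neural genes 2 were detected, Stmn2 (7.25 ± 0.07) and Ret (7.14 ± 0.05), and Gap43 was above background on 3. Of 14 liver genes 2 were detected, Trf (8.17 ± 0.11), which other tissues also express, and Hnf4a (7.08 ± 0.06). Afp, Apoa1 and Ttr were above background on 0. The lists of oesophagus, thyroid and thymus (12 genes) and of gut, kidney and pancreas (13) had 0 detected, and germ cell and early embryo 1 of 13, Prm1 (7.40 ± 0.19). Ccl25 of thymus and Cpa1 of pancreas were above background on 3 arrays each.

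Signalling pathways showed some of their parts at high and others at background brightness. Shares detected are read against the 45.0% of all named genes. Of 18 FGF genes 11 were detected, with a median percentile of 36.3. Among ligands Fgf10 was followed by Fgf1 (8.34 ± 0.05), Fgf7 (7.54 ± 0.10) and Fgf9 (7.22 ± 0.08), the last made by epithelium and mesothelium. Fgfr3 (8.24 ± 0.11), Fgfr2, the epithelial receptor of Fgf10 (7.96 ± 0.08), and Fgfr1 (7.12 ± 0.11) were detected, and Fgfr4 was above background on 3 arrays. Of the targets, Dusp6, the ERK phosphatase, had 10.67, 10.78, 10.76 and 10.82 (10.76 ± 0.06), Spred1 averaged 9.69 ± 0.14 and Etv4 8.10 ± 0.20. With the mean over its detected probes Dusp6 moved from percentile 84.6 to 63.0. Spry2 and Spry1, feedback inhibitors, were above background on 0 arrays. In the ERK cascade 7 of 11 genes were detected, and 6 further list members were not analysed. The median percentile of 92.6 is that of the MEK2 gene Map2k2 by its brighter probe. With the mean over its detected probes Map2k2 moved to percentile 68.1. Nras averaged 12.34 ± 0.20, the adaptor Shc1 12.03 ± 0.07, the phosphatase Ptpn11 11.95 ± 0.11 and Araf 10.52 ± 0.13. MEK2, Map2k2, had 11.69, 11.52, 11.63 and 11.71 (11.64 ± 0.09), and its second probe averaged 7.22 ± 0.15. On the other 8 arrays, whose genotypes are Mek2-/-, the bright probe was above background on 8 and the second on 1, so the bright probe's signal does not separate the Mek2 genotypes by detection. The Ras inhibitor Nf1 was the dimmest detected member (7.12 ± 0.07). MEK1, Map2k1, which the control label does not list as altered, had 6.52, 6.87, 6.83 and 6.91 and was above background on 0 of the 4 control arrays, and on 0 of the other 8.

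Hedgehog genes were detected for 4 of 12. Shh and its signal transducer Smo (9.84 ± 0.17) were above the median of detected genes. With the mean over detected probes Shh moved from percentile 84.9 to 65.2 and Smo from 70.7 to 57.1. Hhip, the inhibitory target, averaged 8.32 ± 0.24, and Dhh was dimmest (7.16 ± 0.14). Ptch1, receptor and target, was above background on 2 arrays, Gli3 on 1 and Gli1 on 0. Of 21 Wnt genes 11 were detected (52.4%, against 45.0% of all named genes), with a median percentile of 59.2. Ctnnb1, beta-catenin, had 11.18, 11.89, 11.98 and 11.49 (11.64 ± 0.37), with replicates 2 and 3 above replicates 1 and 4. The epithelial ligand Wnt7b had 10.75, 10.60, 10.46 and 10.45 (10.56 ± 0.14) and the mesenchymal Wnt5a averaged 8.37 ± 0.06. Over the mean of their detected probes Wnt7b moved from percentile 82.3 to 65.0 and Wnt5a from 39.7 to 24.6. The receptors Fzd7 (9.88 ± 0.11) and Fzd2 (9.52 ± 0.18), the target Axin2 (9.32 ± 0.11) and the secreted inhibitor Sfrp1 (8.07 ± 0.08) were detected. Rspo2 was dimmest (7.18 ± 0.11), and Lef1 and Lrp6 were above background on 0 arrays.

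BMP and TGF-beta genes were detected for 21 of 25, with a median percentile of 50.5. Ligands beside Bmp4 were Tgfb3 (9.12 ± 0.05), Tgfb2 (8.82 ± 0.24), Tgfb1 (8.12 ± 0.12), Bmp7 (7.61 ± 0.15) and Bmp5 (7.44 ± 0.09). Tgfb2 had 8.59, 8.86, 9.14 and 8.69, with replicate 3 the highest. Tgfbr2 (11.72 ± 0.11) and Tgfbr1 (10.74 ± 0.08) were the bright receptors and Smad4, the common mediator, averaged 11.84 ± 0.09. Of the targets, Tgfbi averaged 12.12 ± 0.08, Id1 10.33 ± 0.18 and Id3 8.85 ± 0.26. Acvrl1 was dimmest (7.13 ± 0.09). Bmp2, Grem1 and Bmpr2 were above background on 0 arrays. Notch genes were detected for 9 of 18. Notch4, the endothelial receptor, had 9.89, 10.02, 9.97 and 10.07 (9.99 ± 0.08), and the targets Hes1 (9.53 ± 0.06) and Hey1 (9.36 ± 0.14) followed. Dll4, the endothelial ligand, was dimmest (7.10 ± 0.09) and Jag1 was above background on 0. Retinoic acid genes were detected for 6 of 15, with a median percentile of 16.4. Rxrb averaged 11.24 ± 0.22, Rarb, receptor and target, 8.01 ± 0.08, and the synthesising enzyme Aldh1a2 7.51 ± 0.23. Cyp26a1 and Cyp26b1, the degrading enzymes, were above background on 0.

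Growth factors and receptors of mesenchyme, vessels and nerves were detected for 20 of 23, with a median percentile of 71.6. After Igf2, midkine, Mdk, a heparin-binding factor of embryonic tissue, had 14.08, 14.05, 14.05 and 14.17 (14.09 ± 0.05). The binding proteins Igfbp4 (12.36 ± 0.13) and Igfbp5 (12.02 ± 0.19) and the receptor that clears Igf2, Igf2r (11.01 ± 0.16), followed. The vascular factors were Vegfb (10.55 ± 0.12), Vegfd (9.51 ± 0.14), Vegfa (9.42 ± 0.12) and Vegfc (8.45 ± 0.10). Pdgfa averaged 10.55 ± 0.21 and the chemokine Cxcl12 10.98 ± 0.12. With the mean over detected probes Cxcl12 moved from percentile 87.3 to 60.5 and Mdk from 99.5 to 87.6. Igfbp3 was dimmest (7.34 ± 0.04). Met was above background on 2 arrays, Gdnf on 1 and Hgf on 0. Imprinted genes of fetal growth were detected for 10 of 14, with a median percentile of 90.2. Cdkn1c, the cell cycle inhibitor p57, had 14.32, 14.41, 14.27 and 14.28 (14.32 ± 0.06). Grb10 averaged 13.61 ± 0.13, Dlk1 13.08 ± 0.03, Ndn 11.54 ± 0.13 and Mest 11.09 ± 0.25. Peg3 was dimmest (8.24 ± 0.08), and Plagl1 and Peg10 were above background on 0 arrays.

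Cell cycle and replication genes were detected for 20 of 26, with a median percentile of 86.8. Ccnd1, cyclin D1, had 12.96, 12.75, 12.87 and 12.84 (12.86 ± 0.08) and Ccnd2 had 10.36, 10.50, 10.62 and 11.08 (10.64 ± 0.31), with replicate 4 highest. The replicative helicase subunits Mcm4 (12.67 ± 0.11), Mcm5 (12.62 ± 0.13) and Mcm6 (10.80 ± 0.08), Cdc20, an activator of the anaphase complex (12.16 ± 0.08), and Birc5, survivin (11.91 ± 0.07), were bright. The other detected probes of Mcm4 lay between 7.13 and 7.30. Stmn1 was dimmest (8.38 ± 0.40). Plk1 was above background on 2 arrays, and Ccnb2 and Ccna2 on 0. Matrix genes were detected for 21 of 27, with a median percentile of 81.6. Col4a1, of basement membrane, had 12.51, 12.53, 12.59 and 12.62 (12.56 ± 0.05) and Eln, elastin, had 11.74, 11.69, 11.54 and 11.45 (11.61 ± 0.14). Sparc (12.64 ± 0.04), Col6a1 (12.16 ± 0.10) and Fbln1 (12.03 ± 0.08) were bright, and Col18a1 was the brightest of 21 detected collagens (12.78 ± 0.12). Col1a1 averaged 10.78 ± 0.11 and its chain partner Col1a2, the dimmest of the list, 7.34 ± 0.08. Postn and Fbln5 were above background on 0.

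Glycolytic and hypoxia genes were detected for 16 of 19, with a median percentile of 77.6. Gapdh averaged 14.20 ± 0.11, Tpi1 13.29 ± 0.14 and Ldha 13.10 ± 0.13. Aldoa had 10.31, 10.47, 10.99 and 10.76 (10.63 ± 0.30), with replicates 3 and 4 above replicates 1 and 2. The hypoxia target Car9 was dimmest (7.26 ± 0.07). Chaperone and stress genes were detected for 12 of 18, with a median percentile of 78.9. Xbp1 averaged 12.15 ± 0.17, Hsp90b1 11.93 ± 0.32 and Hsph1 10.45 ± 0.33, while Hspa1a and Trib3 were above background on 0 arrays. Immediate early genes were detected for 11 of 20 (55.0%, against 45.0% of all named genes), with a median percentile of 51.0. Ccn2 (10.44 ± 0.15) and Egr1 (9.54 ± 0.23) led them, and Fos was above background on 2 arrays. Interferon and MHC class I genes were detected for 8 of 17, near the share of all named genes. Ifitm2 (12.32 ± 0.13), B2m (11.12 ± 0.18) and Ifitm3 (10.87 ± 0.06) led, and Irf7 and Ifit1 were on 0. Xenobiotic genes were detected for 13 of 19, led by the glutathione transferases Gstm2 (12.21 ± 0.03) and Gstp1 (11.77 ± 0.08), with Cyp1a1 and Cyp2e1 on 0.

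**Figure D3:**
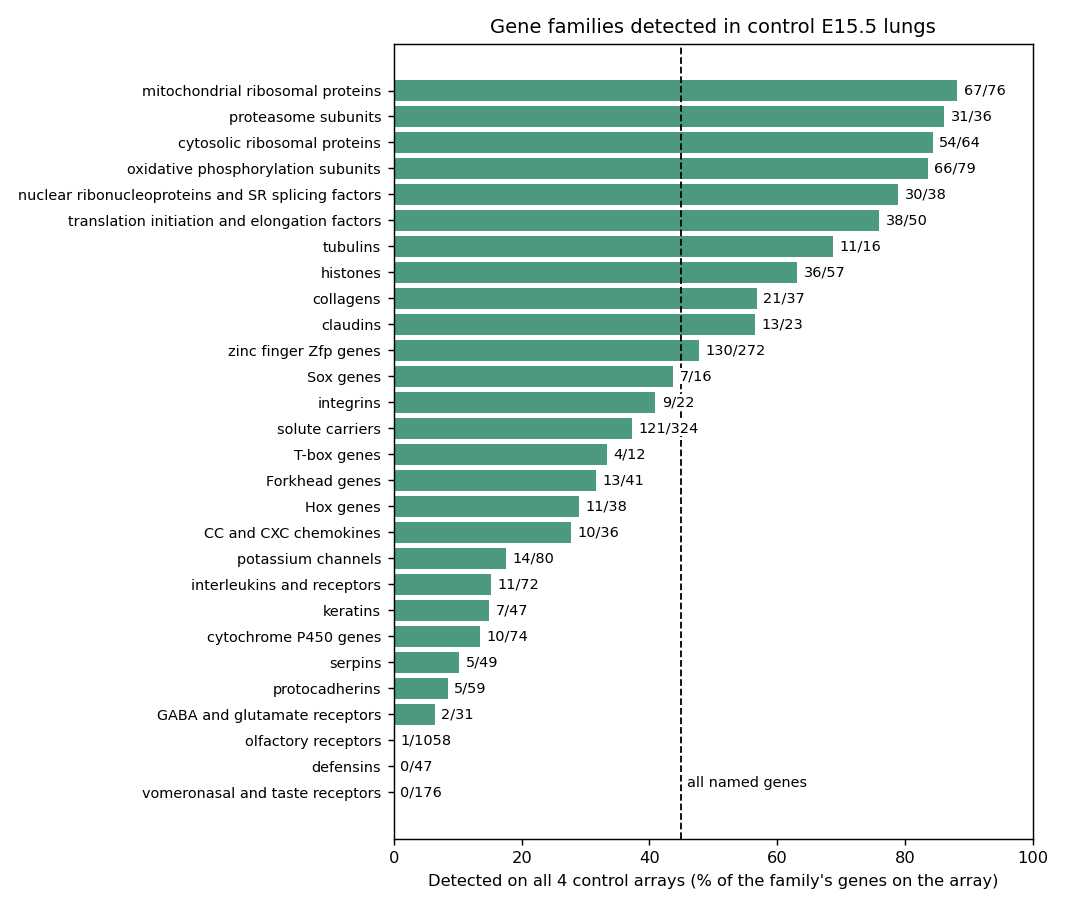
Share of each gene family on the array (bars, %) that was detected on all 4 control arrays, with counts beside the bars and the share of all named genes (45.0%) as a dashed line. Ribosomal, proteasome and respiratory families lie above 80% and receptor families of the nose and taste at or near 0.

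Genes were also grouped into families by symbol. Of 64 cytosolic ribosomal protein genes 54 were detected (84.4%), with a median percentile of 99.2. The shares were 67 of 76 mitochondrial ribosomal proteins, 31 of 36 proteasome subunits, 66 of 79 oxidative phosphorylation subunits and 30 of 38 splicing factors, with median percentiles of 77.9, 91.0, 94.2 and 93.1. Of 1058 olfactory receptors 1 was detected, Olfr724 at 7.21 ± 0.06, and 0 of 176 vomeronasal and taste receptors and 0 of 47 defensins. Of 47 keratins 7 were detected, of 74 cytochrome P450 genes 10, of 80 potassium channels 14, of 31 GABA and glutamate receptors 2 and of 59 protocadherins 5.

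Hox genes, which give position along the body axis, were detected for 11 of 38, all but Hoxa13 from the anterior and middle paralogue groups. Hoxb5 had 11.19, 11.41, 11.16 and 11.49 (11.31 ± 0.16) and Hoxa5, required for lung development in mice, had 11.18, 11.09, 11.07 and 11.46 (11.20 ± 0.18). On both, replicate 4 was highest. Hoxb2 averaged 9.53 ± 0.12, Hoxa2 8.46 ± 0.19, Hoxb6 8.18 ± 0.09, Hoxb4 8.14 ± 0.31, Hoxa4 7.94 ± 0.17, Hoxb3 7.92 ± 0.05, Hoxa7 7.86 ± 0.04 and Hoxb7 7.47 ± 0.13. The posterior gene Hoxa13 was dimmest (7.21 ± 0.10). Detected members all belong to the Hoxa and Hoxb clusters. Of 41 Forkhead genes 13 were detected, with Foxa1 brightest, and Foxm1, of proliferating cells, averaged 8.94 ± 0.11.

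**Figure D4:**
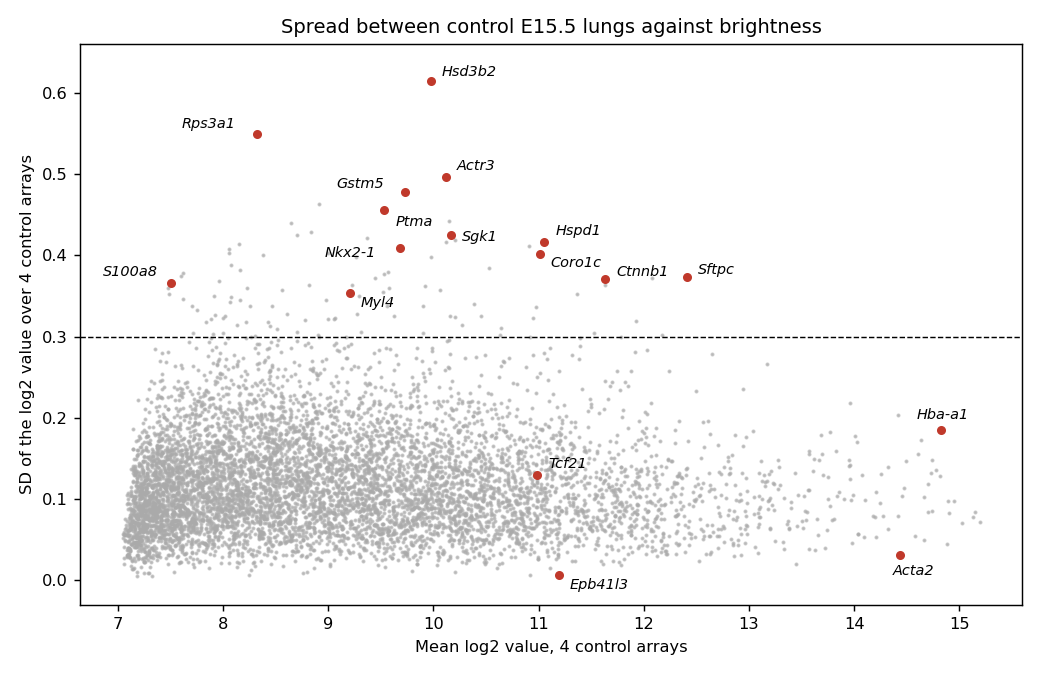
SD over 4 control arrays (vertical axis) against mean log2 value (horizontal axis) of each detected gene, with named genes in red and a dashed line at an SD of 0.3. The SD is highest for Hsd3b2 (0.61), and Acta2, shown by its brightest probe, lies near the bottom at 0.03.

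The 4 lungs differed little for most genes. The median SD was 0.11 on the log2 scale, 43.2% of genes had an SD under 0.1, and 101 (1.35%) had an SD over 0.3. That count was 722 with a normexp background, and 183 without replicate 3 and 176 without replicate 4. The median SD lay between 0.08 and 0.12 in each of 10 equal bins of brightness. The steadiest genes above the 75th percentile of brightness were Epb41l3 (11.19, 11.20, 11.20 and 11.19, SD 0.0069), a membrane skeleton protein, and Add3, an adducin of the same skeleton (10.93, 10.91, 10.92 and 10.92, SD 0.0072). Cenpt, Lhfpl2, Plekha1, Llgl1, Fundc1, Prnp, Rpl34 and Nicn1 followed, with SDs up to 0.021. All were chosen for the smallest SD over these 4 arrays, so the values do not show stable expression. Another detected probe of Add3 had an SD of 0.15. For Epb41l3 and Add3 the SDs were 0.15 and 0.20 on the Mek1+/flox;Mek2-/-;Dermo1+/Cre arrays. On the Mek1flox/flox;Mek2-/-;Dermo1+/Cre arrays they were 0.10 and 0.06.

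Among the 25 most variable genes 20 had replicates 2 and 3 above replicates 1 and 4. Hsd3b2, a steroid dehydrogenase, had 9.81, 10.80, 9.95 and 9.33 (9.97 ± 0.61), with replicate 2 the highest and replicate 4 the lowest. Rps3a1, the dimmest detected cytosolic ribosomal protein, had 7.71, 9.03, 8.41 and 8.15 (8.32 ± 0.55). Actr3, of the actin-nucleating Arp2/3 complex, had 9.65, 10.67, 10.41 and 9.75 (10.12 ± 0.50). In all 3 genes replicates 2 and 3 lay above replicates 1 and 4.

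The prothymosin gene Ptma had 8.93, 9.96, 9.79 and 9.45 (9.53 ± 0.46). Hspd1, the mitochondrial chaperone, had 10.60, 11.32, 11.48 and 10.82 (11.05 ± 0.42). Its other detected probe averaged 10.23 with an SD of 0.09, so the spread of Hspd1 rests on its brightest probe. Vcl, vinculin (10.20 ± 0.42), Pabpc1, the poly(A)-binding protein (10.14 ± 0.44), Rfc4, a clamp loader subunit (8.91 ± 0.46), Gstm5 (9.73 ± 0.48), Ywhaq, a 14-3-3 protein (10.12 ± 0.42), Zxda (8.83 ± 0.43), Cul1 (8.70 ± 0.43), Polr1c (9.36 ± 0.42), Pls3 (8.15 ± 0.41), Eif1b (10.91 ± 0.41), Stmn1 and Nkx2-1 had the same order, as did Hbb-b2, a beta-globin (9.97 ± 0.40), Actl6a (mean 9.0, SD 0.40) and Chchd7 (8.06 ± 0.41). The others of the 25 were Rhob (8.65 ± 0.44), Fignl1 (9.26 ± 0.40), Sgk1, Retreg2 and Coro1c. The other detected probes of Pabpc1 had SDs of up to 0.24.

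Which genes these are depended on the arrays used, since without replicate 1 only 9 of the 25 and 51 of the 100 most variable remained in those sets. Of the 100 most variable genes 70 had replicates 2 and 3 both above replicates 1 and 4, against 16.6% of all detected genes. The opposite order held for 5 of the 100, against 26.4% of all detected genes. Replicate 1 was lowest for 63 of the 100 and replicate 2 highest for 60. Replicates 2 and 3 are also the arrays with the highest raw brightness, given above, whose part in this order was not tested. Of the 100, 22 had a second detected probe, with a median SD of 0.14 for that probe against 0.34 for the chosen one, and it passed 0.3 in 2. The same 100 genes had a median SD of 0.35 in controls, 0.25 on the Mek1+/flox;Mek2-/-;Dermo1+/Cre arrays and 0.18 on the Mek1flox/flox;Mek2-/-;Dermo1+/Cre arrays. Since they were chosen for their SD in controls, that difference is no finding. Over all detected genes the medians were 0.11, 0.13 and 0.11.

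Other variable genes followed other orders, and those below were picked after their values had been seen. Sgk1, a glucocorticoid-induced kinase, had 9.60, 10.08, 10.49 and 10.48 (10.16 ± 0.42), with replicate 1 lowest. Coro1c, an actin regulator, had 11.35, 11.20, 11.04 and 10.44 (11.01 ± 0.40), with replicate 4 lowest. Retreg2 had 7.76, 7.76, 8.61 and 8.10 (8.06 ± 0.40), with replicate 3 highest. S100a8, a calcium-binding protein of neutrophils, had 8.05, 7.37, 7.36 and 7.25 (7.51 ± 0.37) and Bst2, an interferon-induced membrane protein, had 8.09, 7.61, 7.27 and 7.52 (7.62 ± 0.35), with replicate 1 highest for both. Sftpc and Myl4, described above, are in this set. The surfactant protein C gene is the brightest of the tissue markers with an SD over 0.3.

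**Figure D5:**
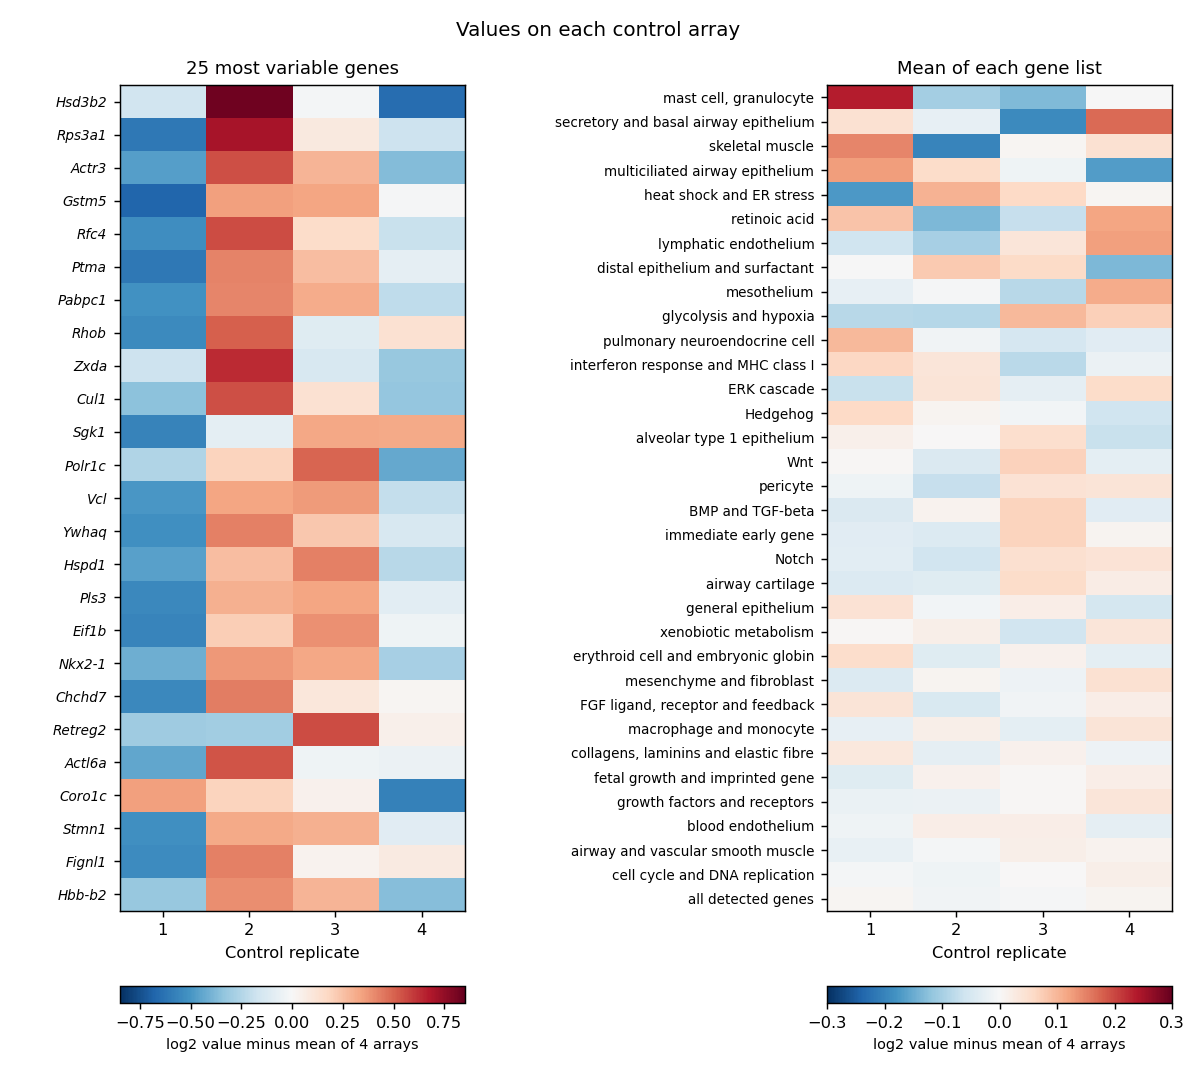
Log2 value minus the mean of the 4 control arrays, by replicate (columns), for the 25 most variable genes (left) and for the mean of the detected members of each gene list with at least 3 (right). On the left replicate 1 is mostly blue (low) and replicate 2 red (high), and on the right most rows are pale.

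The mean of each list's detected members was also set side by side over the 4 lungs, and averaging over more members narrows its range by construction. The mean of all detected genes differed by 0.017 between the highest and lowest arrays. The range was 0.030 for cell cycle genes, 0.040 for smooth muscle and 0.047 for blood endothelium. It was 0.22 for distal epithelium, where replicate 4 lay at -0.14 and replicate 2 at 0.079 relative to the mean of the 4. The members of that list with an SD over 0.3 were Nkx2-1 (0.41), Sftpc (0.37) and Id2 (0.34), whose part in the range was not tested. Glycolysis and hypoxia genes had replicates 1 and 2 at -0.084 and -0.085 and replicates 3 and 4 at 0.097 and 0.072. Chaperone and stress genes had replicate 1 at -0.17 and replicate 2 at 0.11. The range passed 0.3 in 5 lists, and each of those rests on 1 to 4 genes: germ cell and early embryo (0.45), cardiac muscle (0.42), mast cell, granulocyte and megakaryocyte (0.37), secretory and basal epithelium (0.36) and skeletal muscle (0.35).

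Genes of the sex chromosomes separated 1 lung from the others. Xist, the RNA of the inactive X chromosome, had 7.85, 8.21, 6.74 and 7.92, above background on replicates 1, 2 and 4. Eif2s3y, on the Y chromosome, had 6.67, 6.51, 8.07 and 6.95, and Kdm5d, also Y-linked, had 6.72, 6.59, 7.11 and 6.91, both above background on replicate 3 alone. Uty had 6.94, 6.91, 6.95 and 7.05 and passed the detection threshold on replicate 4, with a detection p of 0.0075. Sry was above background on 0 arrays. The labels give no sex, and the part of sex in the spread between the lungs was not tested.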

How the data were processed

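Total RNA of 12 E15.5 mouse lung specimens was biotin-labelled for Illumina bead arrays, as the labels' protocols state. The authors deposited a linear intensity per probe and array without normalization between arrays and a detection p-value beside it, per the file headers. The authors' deposited matrix holds log2 values. On every array their ranks match the intensities (Spearman 1), and the median distance from intensities put through quantile normalization and log2 was 0.0016 to 0.0066. Software: not given in the sources used here. The number of arrays limits the precision. Of 25697 probes 23978 were paired with 1 symbol by GEO's platform annotation, 0 with more than 1, and 1719 were not listed there. RefSeq (GRCm38.p6) held 23962 of their gene identifiers and 0 symbols changed.

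A gene was represented by its brightest probe among those with a detection p under 0.01 on all 4 control arrays. Means, SDs, ranks and percentiles were computed in Python 3.11.15 (pandas 2.3.3, numpy 2.4.6, scipy 1.17.1), and probe choice, ranks, SDs and the outlier ratio were tested on simulated data. No test between groups was made. The 25 brightest, 25 most variable and 10 steadiest genes were named, predicted-gene symbols passed over, with up to 5 bright, 1 dim and 4 undetected members of each of 41 lists, and the brightest and dimmest of 28 symbol families. Other list members are named with their values. Members and lists were chosen with earlier results of these data known. List genes with no probe given a symbol were not analysed here. The alternatives were other detection thresholds, scanner intensities without normalization, a normexp background (nec in limma 3.58.1, R 4.3.3, offset 16) with quantile normalization, other probe rules and leaving out arrays.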

Additional observations from a re-analysis of the deposited data

Results flagged for a closer look

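In 2 of 111 sets of 4 control values compared (78 genes and 33 gene lists), 1 lung stood apart from the other 3 by more than Dixon's 95% critical value for 4 samples. The rule flags about 1 in 20 sets by chance where sets are not chosen for their spread. Many of these genes, both named below included, were chosen for their spread on these arrays, so that rate does not apply to them. S100a8, of neutrophils, was 8.05 on replicate 1, against 7.25 to 7.37 on the other 3 arrays. Vipas39, of vesicle sorting, was 8.01 on replicate 1, against 7.28 to 7.35.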

How the results depend on the processing

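The brightness ranking kept its top under most choices. All 25 brightest genes stayed among the 25 with scanner intensities, a normexp background or a probe chosen over 12 arrays, 20 did with the mean over all detected probes of a gene, and 24 to 25 did when a control array was left out. The number of detected genes ran from 6547 at a detection p under 0.001 to 8876 for detection on at least 1 array, and from 7505 to 7691 without 1 array. Of the 100 brightest, 76 stayed with the mean over probes. Under that rule the percentiles of 222 named or list genes moved by more than their SD between arrays, and 186 did not. Of the list medians 15 moved likewise and 22 did not. The median shift of a gene was 3.13 percentile points and the largest 37.5. Mcm4 moved from percentile 97.4 to 59.9 and Map2k2 from 92.6 to 68.1. The lists with a detected share above that of all named genes numbered 25 of 41 under every alternative run, and those with a median percentile over 50 numbered 17 to 19.

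The variable genes depended more on the processing. The count of genes with an SD over 0.3 was 4119 without normalization, 722 with a normexp background, 58 among genes above median brightness and 223 with replicates 1 and 4 alone, against 101, and from 92 to 183 without 1 array. Of the 25 most variable genes 8 were kept with a normexp background, 5 with replicates 1 and 4 alone and 9 to 21 without 1 array, and of the 100 most variable 51, 25 and 51 to 81, with 58 among genes above median brightness, which are fewer by construction. Leaving out replicate 1 kept 9 and 51, replicate 2 kept 13 and 64, replicate 3 kept 16 and replicate 4 kept 21, with 183 and 176 genes over 0.3 without replicates 3 and 4. Replicates 2 and 3 lay above 1 and 4 in 59 to 68 of the 100 most variable under the alternatives with normalized values. Without normalization the count was 100, but replicates 2 and 3 are the brighter arrays there, so that count is no check of the order. Lists with a range over 0.3 numbered 10 with a normexp background, 34 without normalization and 3 for brighter members, against 5. The cause was not tested. No paired analysis was possible because no result comes from a test between groups. Dim probes near background limit what detection shows.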
